A study of Mus musculus with 4 samples.

Results

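The genes described here encode the proteasome, the protease that degrades ubiquitin-tagged proteins, in its constitutive form together with its regulatory particles, assembly chaperones, activators and inhibitor. Members were chosen by symbol: FPKM, the number of fragments relative to transcript length and to the mapped fragments of a library, was added up by gene symbol, and symbols starting with Psma, Psmb, Psmc, Psmd, Psme, Psmf or Psmg were taken without the inducible catalytic subunits Psmb8, Psmb9 and Psmb10. This gave 47 of 23990 symbols, of which 45 had a mean of at least 1 FPKM in at least one tissue and were tested. The prefix also took in Psmc3ip, a meiotic recombination factor that is not a proteasome subunit, and Psme2b, an intronless copy of Psme2.

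All 4 libraries came from wild type C57BL/6 mice (C57BL/6J in the study's methods) in which EAE, a mouse model of multiple sclerosis, was induced with a myelin peptide in complete Freund's adjuvant and 200 ng of pertussis toxin. CD44+ effector CD4 cells were purified at disease onset, and 2 libraries were made from spinal cord cells (CNS) and 2 from pooled cells of the draining lymph nodes (dLN). By the study's methods the sorted cells of both tissues were exposed for 4 h to 50 ng/ml PMA and 750 ng/ml ionomycin before RNA was taken. The sample labels describe the cells as freshly sorted and name no such treatment, so the sources differ on the state of the cells, and neither states the age of the mice. No source says that the libraries of a tissue came from separate animals, so p-values measure only the spread between these libraries, which may be technical.

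The proteasome consists of a barrel-shaped 20S core, whose outer alpha rings gate access to the inner beta rings that hold the catalytic sites, and of caps that open the gate. The 19S cap recognises, deubiquitinates and unfolds substrates, whereas PA28 (Psme1, Psme2 and, in the nucleus, Psme3) and PA200 (Psme4) are alternative caps. In cells exposed to interferon gamma, the constitutive catalytic subunits Psmb5, Psmb6 and Psmb7 are replaced in new particles by Psmb8, Psmb9 and Psmb10, which form the immunoproteasome.

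Depth, estimated from the steps between low FPKM values, lay between 18.5 M and 21.9 M fragments per library, and a tested member rested on 58 to 11451 fragments in a library, apart from Psme2b with 25 to 399. Across the log2 values of 10634 tested genes, which are not independent of each other, Pearson's r between replicates was 0.976 (CNS) and 0.986 (dLN). The T cell markers Cd4 and Cd3e were read at 66.7 FPKM or more in every library, but the level of T cell markers differed between the tissues. Of 8 such markers 6 were higher in CNS, among them Cd4 (log2 ratio 2.79) and Cd3g (2.83), and 2 were lower, Cd5 (-0.29) and Cd44 (-0.56), and their sum was 2716 and 2726 FPKM in CNS and 984 and 908 FPKM in dLN. The part of this difference in the proteasome values was not tested. CNS replicate 2 stood apart: its neutrophil markers summed to 200.8 FPKM against 0.767 in CNS replicate 1 and 0 in both dLN libraries, and its macrophage and microglia markers to 494 FPKM against 137 in CNS replicate 1 and 45.7 to 53.1 in dLN. Cst3 alone made up 117.7 and 289.3 FPKM of the macrophage and microglia sums in CNS, and 48.9 and 41.9 FPKM in dLN. Of the 10 tested macrophage and microglia markers 7 were higher in CNS, and Csf1r, Aif1, Tyrobp, C1qa, C1qb and C1qc were at 0 in dLN. Beside the counts of markers given here, 37.8% of all tested genes were higher in CNS and 37.2% lower. B cell markers summed to at most 1.76 FPKM, CD8 T and NK cell markers to 3.398 to 9.19, and glial, neuronal and endothelial markers, mostly Mbp, to 51.3 to 58.0. In this last list Mbp was lower in CNS (log2 ratio -0.28). Gfap (0.655 and 2.51 FPKM) and Cldn5 (1.36 and 3.32 FPKM) were higher in CNS and at 0 in both dLN libraries. Snap25 did not pass the test, and the other 4 were not tested. Y-linked Ddx3y was at 12.7 and 11.2 FPKM in CNS and 0 in dLN, and Xist at 26.6 and 22.3 FPKM in dLN but at most 0.0026 in CNS. Tissue, the sex-linked transcripts and the deposited table, of which there is 1 per tissue, follow the same split and cannot be told apart.

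Most proteasome genes were lower in spinal cord-infiltrated effector CD4 cells than in those of the dLN. Of the 45 tested, 29 (64.4%) were lower in CNS at a Benjamini-Hochberg adjusted p under 0.05 in limma, where 37.2% of all tested genes were lower. Only 4 (8.89%) were higher, where 37.8% of all tested genes were, and these were Psmb1, Psmb3, Psme1 and Psme2b. The other 12 did not pass the test, in a comparison in which 74.9% of all tested genes passed it in either direction. The median log2 ratio of CNS over dLN, on the scale of log2(FPKM + 1), was -0.63 over the members and 0.05 over all tested genes. A gene was lower at least 2-fold as well in 13 members, whereas 18.2% of all tested genes were. For 32 members each CNS library was below each dLN library, where the share among all tested genes was 43.7%, and for 8 members each was above, where the share was 45.7%. The remaining 5, Psma1, Psmc3, Psmd4, Psmd9 and Psmf1, overlapped between the tissues. Without CNS replicate 2, in a fit that assumes the lone CNS library to vary like the dLN libraries, 29 members were lower and 4 higher, with a median of -0.64. Without Psmc3ip and Psme2b, 29 of 43 were lower, 3 were higher and the median was -0.66. In bulk RNA, fewer cells that express a gene and less RNA per cell cannot be told apart.

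**Figure D1:**
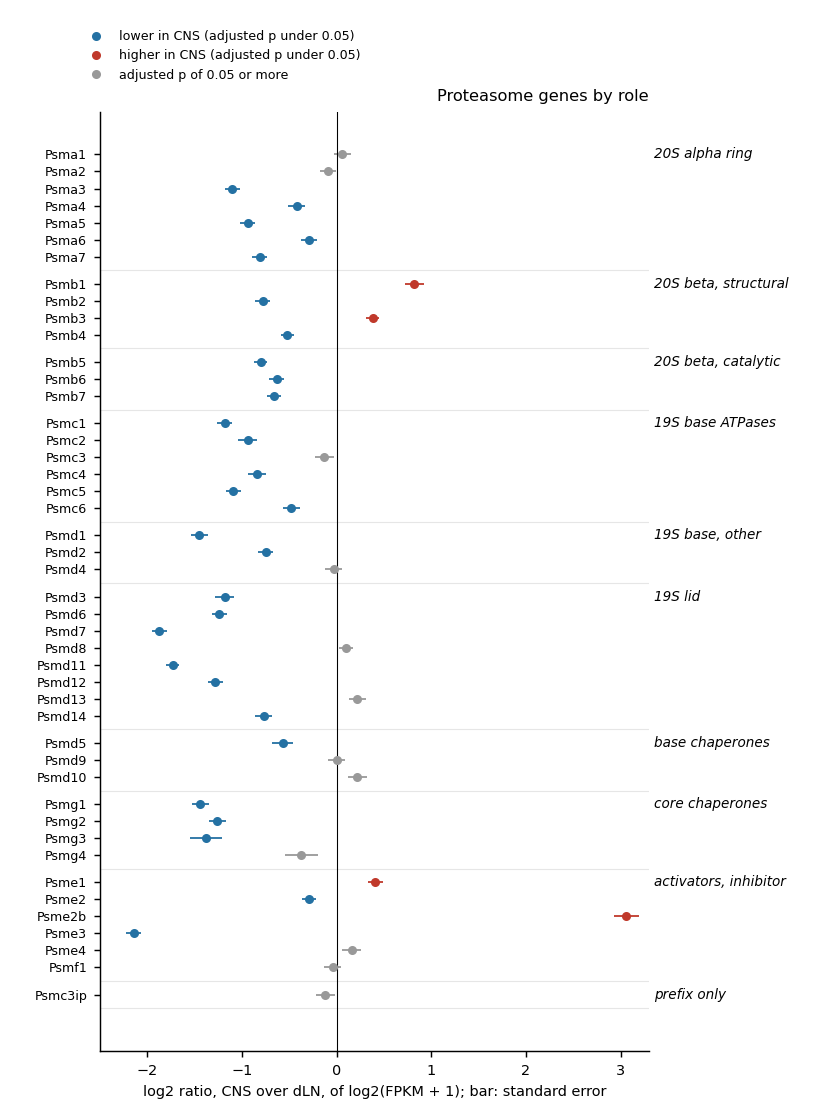
Log2 ratio of CNS over dLN on the log2(FPKM + 1) scale for the 45 tested members, grouped by role; points are limma estimates from 2 libraries per tissue, bars are standard errors, and colour gives direction at an adjusted p under 0.05. The 29 lower genes spread over every role except the prefix-only Psmc3ip, and the 4 higher genes lie in the structural beta subunits and the activators.

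**Figure D2:**
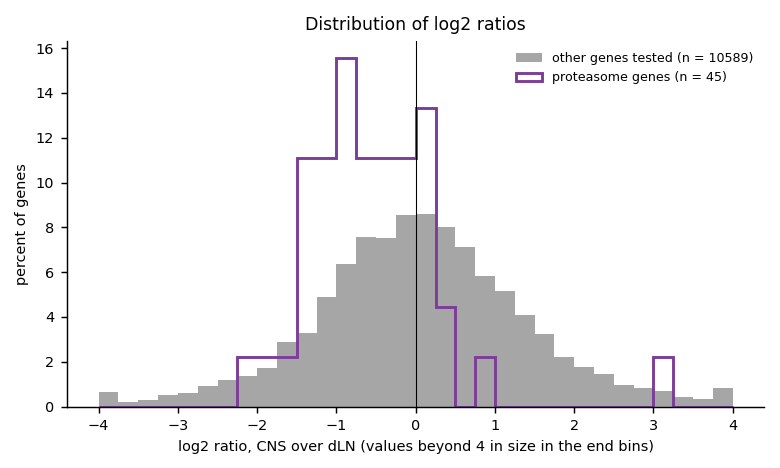
Distribution of log2 ratios of CNS over dLN for the 45 tested proteasome genes (outline) and the 10589 other tested genes (grey), as a percentage of each set. The proteasome genes have a median of -0.63 and a single value above 1, Psme2b at 3.06.

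Summed over members, the 20S core was read at 2062 and 1980 FPKM in CNS and at 2570 and 2562 FPKM in dLN, 1.27-fold higher in dLN. That sum leaves out the inducible subunits, which take catalytic places in the same core, so the fold holds for member subunits only. The inducible subunits summed to 722.6 and 756.8 FPKM in CNS and to 132.6 and 109.9 FPKM in dLN. The 19S cap was read at 1020 and 1037 FPKM in CNS and at 1793 and 1782 FPKM in dLN, 1.74-fold higher in dLN. Adrm1 and the lid peptide Shfm1, which carry other names and are no members, are not in the cap sum. Shfm1 was read at 318.9 and 379.0 FPKM in CNS and at 286.9 and 269.2 FPKM in dLN. Adrm1 was read at 41.2 and 50.8 FPKM in CNS and at 101.6 and 105.8 FPKM in dLN. Among members, the cap was therefore further from its dLN level than the core. The ratio of cap members to core members fell from 0.698 and 0.696 in the dLN libraries to 0.494 and 0.524 in the CNS libraries. The libraries of the tissues did not overlap in either member sum or in the ratio. With 2 libraries a side, the smallest two-sided p of an exact permutation test is 0.333, so these sums are given without a test. All members together summed to 4053 and 4006 FPKM in CNS and to 5533 and 5568 FPKM in dLN.

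Within the alpha ring, 5 of 7 tested subunits were lower in CNS and none was higher. Beside this count and those of the other roles below, 37.2% of all tested genes were lower and 37.8% higher. Psma3 differed most. It was read at 86.0 and 79.6 FPKM in CNS and at 178.6 and 178.5 FPKM in dLN, a log2 ratio of -1.10 (SE 0.08, adjusted p = 0.000293). Psma5 and Psma7 followed, with log2 ratios of -0.94 and -0.81. No CNS library of any of these 3 reached a dLN library, as in 43.7% of all tested genes. Psma4 (-0.42, adjusted p = 0.0102) and Psma6 (-0.29, adjusted p = 0.0236) were lower by less, and both lost the call when either dLN library was left out, with adjusted p between 0.0513 and 0.125. Psma6 lost it also when libraries were scaled to the same upper quartile (-0.16, adjusted p = 0.151). Psma1 was read at 114.6 and 109.9 FPKM in CNS and at 114.1 and 101.5 FPKM in dLN, with overlap, and Psma2 at 208.9 and 192.2 FPKM against 212.2 and 213.7 FPKM (log2 ratio -0.09, adjusted p = 0.358). Subunits of a ring that holds them in equal number thus differed between tissues by a log2 ratio of 0.06 in Psma1 and of -1.10 in Psma3. Psma8, the testis form of an alpha subunit, had at most 1 fragment in a library and was not tested.

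The structural beta subunits, which carry no active site, moved in opposite directions. Psmb1 was read at 284.7 and 244.8 FPKM in CNS and at 149.9 and 148.2 FPKM in dLN (log2 ratio 0.82, SE 0.10, adjusted p = 0.00135). Psmb3 was read at 253.3 and 256.2 FPKM in CNS and at 201.2 and 189.8 FPKM in dLN (log2 ratio 0.38, SE 0.07, adjusted p = 0.00717). Both were higher in each CNS library than in either dLN library, as were 45.7% of all tested genes. Psmb3 lost its call when libraries were scaled to the same FPKM sum (adjusted p = 0.0801) or without dLN replicate 2. Psmb2 went the other way, from 177.5 and 182.2 FPKM in dLN to 101.1 and 107.6 FPKM in CNS (log2 ratio -0.78, adjusted p = 0.00072), and Psmb4 was also lower (-0.52, adjusted p = 0.00203). The ratio of Psmb1 to Psmb2 was 0.844 and 0.813 in dLN and 2.82 and 2.28 in CNS.

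All 3 tested constitutive catalytic subunits were lower in CNS. Psmb5, which carries the chymotrypsin-like activity, was read at 90.1 and 91.7 FPKM in CNS and at 157.3 and 159.6 FPKM in dLN (log2 ratio -0.80, SE 0.07, adjusted p = 0.000551). Psmb6, the caspase-like subunit, was read at 73.6 and 79.1 FPKM against 116.1 and 121.7 FPKM (log2 ratio -0.63, SE 0.08, adjusted p = 0.00183). Psmb7, the trypsin-like subunit, was read at 138.4 and 134.6 FPKM against 219.4 and 213.9 FPKM (log2 ratio -0.66, SE 0.07, adjusted p = 0.000969). The log2 ratios of the 3 ran from -0.63 to -0.80. In each of them both CNS libraries were below both dLN libraries, as in 43.7% of all tested genes. Psmb11, the catalytic subunit of the thymic epithelium, was at or under the level of 1 fragment in every library and was not tested.

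Their inducible counterparts went in the opposite direction. Psmb8, which takes the place of Psmb5, was read at 419.6 and 425.8 FPKM in CNS and at 69.8 and 57.5 FPKM in dLN (log2 ratio 2.72, SE 0.11, adjusted p = 9.22e-05). Psmb9, which replaces Psmb6, had a log2 ratio of 2.23 (adjusted p = 0.000121), and Psmb10, which replaces Psmb7, one of 2.88 (adjusted p = 0.000103). Since FPKM is scaled by transcript length, levels can be set side by side within a library. In CNS, Psmb8 stood at 4.66 and 4.64 times Psmb5, and in dLN at 0.444 and 0.360 times. The ratio of Psmb9 to Psmb6 was 2.70 and 2.71 in CNS and 0.405 and 0.327 in dLN, while Psmb10 remained below Psmb7 in all libraries, at 0.754 and 0.864 in CNS and 0.0718 and 0.0589 in dLN. Summed over the 3 sites, the inducible to constitutive ratio was 2.39 and 2.48 in CNS and 0.269 and 0.222 in dLN, a 9.92-fold difference of the means. On the log2 scale this difference was 3.32, and 3.29 without CNS replicate 2, the library with more myeloid markers. Inducible transcripts thus exceeded constitutive transcripts in both CNS libraries and fell short of them in both dLN libraries. The sum of the inducible subunits contributed 6.10-fold (higher in CNS) and that of the constitutive subunits 1.63-fold (higher in dLN). These ratios describe RNA and not the subunits built into particles.

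**Figure D3:**
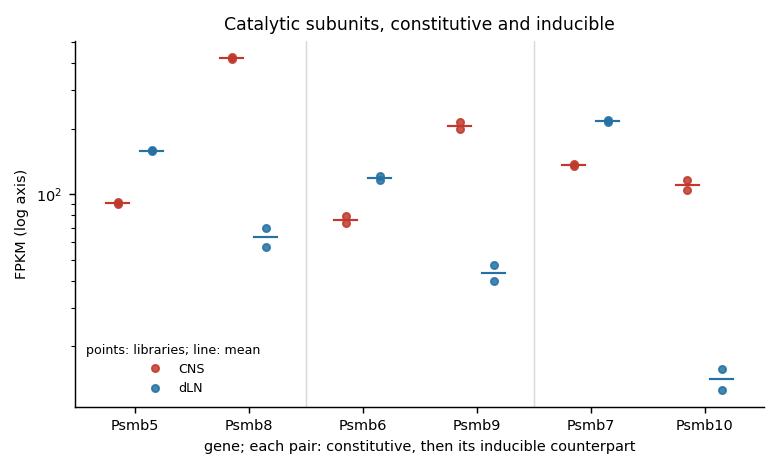
FPKM on a log axis of each constitutive catalytic subunit and its inducible counterpart, in 2 CNS and 2 dLN libraries (points) with tissue means (lines). In each pair the constitutive gene is lower and the inducible gene higher in CNS, for example Psmb5 at 90.9 against 158.4 FPKM and Psmb8 at 422.7 against 63.7 FPKM on average.

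Of the 6 ATPases that form the motor of the 19S base, 5 were lower in CNS and none was higher. Psmc1 differed most, at 46.9 and 46.2 FPKM in CNS and 105.5 and 108.4 FPKM in dLN (log2 ratio -1.18, adjusted p = 0.000211). Psmc5 (-1.09), Psmc2 (-0.94), Psmc4 (-0.84) and Psmc6 (-0.48) were also lower, the last of them not without dLN replicate 1 (adjusted p = 0.051). Psmc3, another ATPase of the same ring, was read at 81.2 and 88.6 FPKM in CNS and at 98.1 and 87.7 FPKM in dLN, which overlapped (log2 ratio -0.13, adjusted p = 0.285). The 6 ATPases are assembled in equal number, and their dLN means ranged from 69.6 FPKM (Psmc6) to 146.3 FPKM (Psmc5).

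Among the other base subunits, the scaffold subunit Psmd1 was read at 29.4 and 27.4 FPKM in CNS and at 81.9 and 77.2 FPKM in dLN (log2 ratio -1.45, SE 0.09, adjusted p = 0.000183). Psmd2, the docking site of ubiquitin shuttle factors, had a log2 ratio of -0.75 (adjusted p = 0.000756). The ubiquitin receptor Psmd4 was read at 113.4 and 125.0 FPKM in CNS and at 119.7 and 123.7 FPKM in dLN. Both libraries of dLN fell inside the range of the CNS libraries for Psmd4 (log2 ratio -0.03, adjusted p = 0.752). Its partner in ubiquitin recognition, Adrm1, fell from 101.6 and 105.8 FPKM in dLN to 41.2 and 50.8 FPKM in CNS (log2 ratio -1.16, adjusted p = 0.000868).

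The lid, which carries the deubiquitinase, held the largest differences of the 19S cap: 6 of 8 member subunits were lower, 5 of them at least 2-fold, with a median log2 ratio of -1.21. At least 2-fold lower were 18.2% of all tested genes. The lid peptide Shfm1, which is no member and not in this count, was higher (log2 ratio 0.32, adjusted p = 0.0448). Psmd7, which forms a dimer with the deubiquitinase Psmd14, was read at 41.4 and 43.3 FPKM in CNS and at 158.2 and 157.6 FPKM in dLN (log2 ratio -1.87, SE 0.08, adjusted p = 9.15e-05). Psmd11, which bridges the lid to the 20S core, was read at 37.5 and 37.1 FPKM in CNS and at 125.2 and 126.4 FPKM in dLN (log2 ratio -1.73, SE 0.07, adjusted p = 9.47e-05). In both genes the replicates of a tissue were within 2 FPKM of each other. Psmd12 (-1.28), Psmd6 (-1.24) and Psmd3 (-1.18) followed. Psmd14 itself was lower by less, at 68.2 and 61.5 FPKM in CNS and 110.0 and 112.4 FPKM in dLN (log2 ratio -0.77, SE 0.09, adjusted p = 0.00112). The lid subunits Psmd8 and Psmd13 did not share this direction. Psmd13 was read at 68.7 and 74.2 FPKM in CNS and at 63.9 and 58.3 FPKM in dLN (log2 ratio 0.22, adjusted p = 0.0809), and Psmd8 at 109.8 and 112.2 FPKM against 105.1 and 102.6 FPKM (0.10, adjusted p = 0.285). Both had CNS libraries above dLN libraries, as 45.7% of all tested genes had. With libraries scaled to the same upper quartile their adjusted p was 0.0144 (Psmd13) and 0.0379 (Psmd8). Psmd8 changed sign when libraries were scaled to the same FPKM sum. The ratio of Psmd7 to Psmd8 was 1.51 and 1.54 in dLN and 0.377 and 0.386 in CNS.

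Among the chaperones that assemble the 20S core, 3 of 4 were lower in CNS, each at least 2-fold, where 18.2% of all tested genes were. Psmg1 and Psmg2 form a dimer that guides the alpha ring. Psmg1 was read at 11.9 and 11.7 FPKM in CNS and at 35.3 and 32.1 FPKM in dLN (log2 ratio -1.44, adjusted p = 0.00021), and Psmg2 had a log2 ratio of -1.26 (adjusted p = 0.000313). Psmg3 was read at 11.5 and 16.1 FPKM in CNS and at 36.5 and 37.4 FPKM in dLN (log2 ratio -1.38, SE 0.17, adjusted p = 0.00141), and its CNS replicates differed by 0.46 on the log2 scale, the largest replicate difference of any member in CNS. Its partner Psmg4 was read at 36.1 and 46.1 FPKM in CNS and at 47.7 and 58.8 FPKM in dLN, and did not pass the test (log2 ratio -0.37, adjusted p = 0.098). Pomp, a further maturation factor of the core that is no member, did not pass it either (-0.14, adjusted p = 0.137).

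Psmg4 was the member whose transcripts divided most differently between the tissues. Its 554-base transcript was read at 17.9 and 20.6 FPKM in CNS and at 38.8 and 49.8 FPKM in dLN. Its 478-base transcript was read at 18.1 and 25.5 FPKM in CNS and at 8.93 and 9.01 FPKM in dLN, so that it made up 50.3% and 55.2% of the gene in CNS and 18.7% and 15.3% in dLN. When the highest transcript of each library stood for the gene, Psmg4 was lower in CNS with a log2 ratio of -1.0 (adjusted p = 0.00889). That was the 478-base transcript in both CNS libraries and the 554-base transcript in both dLN libraries, so this value compares different transcripts. Both transcripts are short, and the length correction of 150 to 190 bases, estimated from the steps of FPKM, differed between libraries and takes a large part of them, so their FPKM is less certain than that of longer genes. For the other members with more than 1 transcript in the tables the shares differed by less, for example 58.2% and 60.2% in CNS against 64.8% and 58.1% in dLN for the 1335-base transcript of Psmd4.

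**Figure D4:**
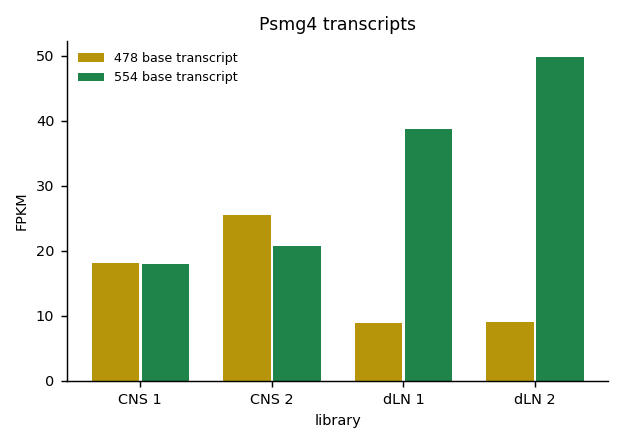
FPKM of the 478-base and the 554-base transcript of Psmg4 in each of the 4 libraries. The bars are of similar height in CNS, at 18.1 and 17.9 FPKM in replicate 1, whereas the 554-base transcript is the higher in dLN, at 49.8 against 9.01 FPKM in replicate 2.

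The chaperones of the 19S base differed less. Psmd5 was read at 15.04 and 15.39 FPKM in CNS and at 24.8 and 21.3 FPKM in dLN (log2 ratio -0.57, adjusted p = 0.00613). Psmd9 overlapped between tissues, at 9.64 and 9.36 FPKM against 9.67 and 9.29 FPKM (adjusted p = 0.978). Psmd10, also known as gankyrin, was at 21.9 and 19.2 FPKM in CNS and 18.0 and 17.0 FPKM in dLN (log2 ratio 0.22, adjusted p = 0.113), and was called higher with the same upper quartile (0.35, adjusted p = 0.0336).

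The activators of the 20S core held the largest difference in each direction among all members. Psme3, the nuclear PA28 subunit, was read at 46.9 and 45.9 FPKM in CNS and at 201.3 and 213.7 FPKM in dLN (log2 ratio -2.14, SE 0.08, adjusted p = 8.95e-05), on 2402 to 11451 fragments. Psme1, of the cytoplasmic PA28 ring, was read at 377.2 and 394.5 FPKM in CNS and at 276.7 and 304.2 FPKM in dLN (log2 ratio 0.41, SE 0.08, adjusted p = 0.00816). Psme2, which shares that ring with Psme1, was read at 372.5 and 366.4 FPKM in CNS and at 449.0 and 457.2 FPKM in dLN (log2 ratio -0.29, SE 0.07, adjusted p = 0.0125). The partners of a single ring thus moved apart, and the ratio of Psme2 to Psme1 was 1.62 and 1.5 in dLN and 0.987 and 0.929 in CNS. Neither call held under every alternative. Psme1 was not called with libraries scaled to the same FPKM sum (log2 ratio 0.21, adjusted p = 0.0642) or without dLN replicate 1 (0.34, adjusted p = 0.0603), and Psme2 not with the same upper quartile (-0.16, adjusted p = 0.101) or without either dLN library (adjusted p = 0.0721 and 0.0901). The ratio of Psme1 to Psme3 was 1.37 and 1.42 in dLN and 8.05 and 8.59 in CNS. Psme4, which encodes PA200, was at 14.2 and 12.7 FPKM in CNS and 12.4 and 11.4 FPKM in dLN (log2 ratio 0.16, adjusted p = 0.213). Psmf1, an inhibitor of the core, overlapped, at 12.2 and 12.4 FPKM against 13.1 and 12.3 FPKM (adjusted p = 0.695). The prefix-only gene Psmc3ip was at 3.84 and 3.56 FPKM in CNS and 3.99 and 4.20 FPKM in dLN (log2 ratio -0.12, adjusted p = 0.347).

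**Figure D5:**
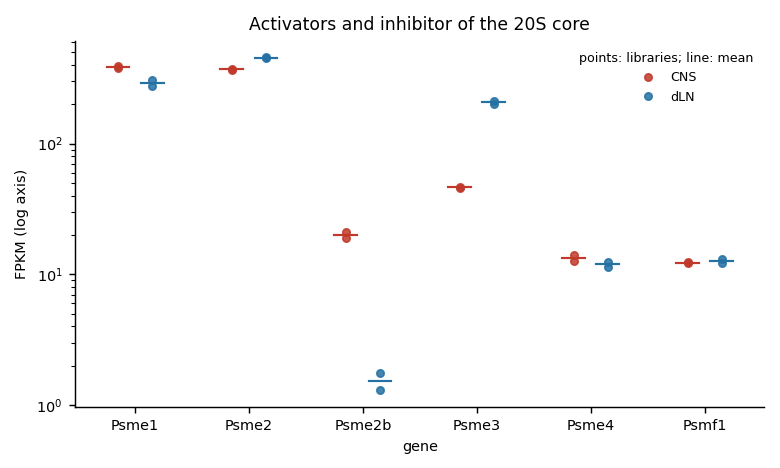
FPKM on a log axis of the 5 activator genes and the inhibitor Psmf1 in 2 CNS and 2 dLN libraries (points) with tissue means (lines). Psme3 falls from a mean of 207.5 FPKM in dLN to 46.4 FPKM in CNS, while Psme2b is at 1.53 and 20.1 FPKM.

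Psme2b was read at 21.16 and 18.98 FPKM in CNS and at 1.75 and 1.31 FPKM in dLN (log2 ratio 3.06, SE 0.13, adjusted p = 9.39e-05). It lies on chromosome 11 at 48945352 to 48946410 (mm10, minus strand), is annotated as a retrogene in GENCODE M21, and its value may hold reads of other genes in 2 ways. Its coding sequence has 717 bases, as that of Psme2 has, and differs from it at 5 of them (99.3% identity), with an identical run of 311 bases. In the other, 261 bases of its 1059-base transcript overlap 9930111J21Rik1 on the same strand, which was itself read at 41.8 and 34.7 FPKM in CNS and 3.01 and 1.51 FPKM in dLN (log2 ratio 3.62, adjusted p = 0.000252). Psme2b stood at 0.0568 and 0.0518 of Psme2 in CNS and 0.00389 and 0.00286 in dLN. Psme2 moved the other way, so the ratio between the copies differed between the tissues. The part of the overlapping gene in the value of Psme2b was not tested. With both copies summed, an alternative chosen after the values were seen, the log2 ratio was -0.22 (adjusted p = 0.0316), close to that of Psme2. The stretch of coding sequence that holds all 5 differences is shown for both copies from coding base 307, over 242 bases (GENCODE M21, build GRCm38), with the differing bases in capitals, because coding reads that miss these positions cannot be assigned to one copy by sequence.
Psme2: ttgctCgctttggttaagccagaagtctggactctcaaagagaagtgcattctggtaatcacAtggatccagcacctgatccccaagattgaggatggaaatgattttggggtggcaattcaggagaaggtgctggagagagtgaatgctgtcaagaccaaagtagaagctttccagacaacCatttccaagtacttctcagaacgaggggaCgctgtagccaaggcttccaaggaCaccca
Psme2b: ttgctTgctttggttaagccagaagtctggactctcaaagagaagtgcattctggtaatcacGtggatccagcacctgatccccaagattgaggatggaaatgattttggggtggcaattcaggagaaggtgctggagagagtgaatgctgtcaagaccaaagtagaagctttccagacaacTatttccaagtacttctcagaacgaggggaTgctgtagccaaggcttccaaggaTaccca

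Sequences before the annotated start were read for 38 of the 45 tested members from RefSeq (GRCm38.p6), as the 250 bases upstream. No sequence was available for the other 7, which were Psmb1, Psmb2, Psmb7, Psmc3, Psmd3, Psmd7 and Psmg2. Short motifs were searched on both strands, and a match describes letters, not a bound site. Shares among members are set beside shares among 27025 gene symbols with a promoter, called all promoters here, where any promoter of a symbol could match. These symbols were not limited to tested genes, as the members were, so the sets are unlike and their difference was not tested. CCGGAAG, the core that Ets factors recognise, was present for 13 of the 38 (34.2%) and for 7.83% of all promoters. Of the 24 members lower in CNS that had a sequence 10 held it, and 3 of the other 14 (Psmc3ip, Psmd4 and Psme4). GGGCGG, the GC box of Sp factors, was present for 21 members (55.3%) and 35.4% of all promoters, and CCAAT for 13 members (34.2%) and 37.5%. TGACNNNGC, the core of the antioxidant response element that Nfe2l1 and Nfe2l2 recognise, was present for 5 members (13.2%) and 11.5% of all promoters, namely Psmb5, Psmb6, Psmc6 and Psmd12, which were lower, and Psmd9, which did not pass the test. The core of the interferon-stimulated response element was present for Psmb3, Psmd4 and Psmd9 (7.89%, against 3.46% of all promoters), none of which was lower in CNS, and TTCNNNGAA, the interferon-gamma activated site, for Psmg1 alone (2.63%, against 8.13%). Matches of different motifs overlapped in 2 cases.

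The 250 bases upstream of the most strongly lower member and of its higher relative are shown first, Psme3 at chr11:101315963-101316212 and Psme1 at chr14:55578244-55578493, both on the plus strand. Capitals mark CCGGAAG on either strand, which Psme3 holds and Psme1 does not. Among other activators, Psme2 (lower) and Psme2b (higher) lack it, and Psme4, which did not pass the test, holds it.
Psme3: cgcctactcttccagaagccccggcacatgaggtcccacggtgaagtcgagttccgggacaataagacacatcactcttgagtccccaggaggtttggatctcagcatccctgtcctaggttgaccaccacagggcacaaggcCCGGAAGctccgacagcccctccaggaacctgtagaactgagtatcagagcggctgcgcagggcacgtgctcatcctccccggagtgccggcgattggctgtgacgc
Psme1: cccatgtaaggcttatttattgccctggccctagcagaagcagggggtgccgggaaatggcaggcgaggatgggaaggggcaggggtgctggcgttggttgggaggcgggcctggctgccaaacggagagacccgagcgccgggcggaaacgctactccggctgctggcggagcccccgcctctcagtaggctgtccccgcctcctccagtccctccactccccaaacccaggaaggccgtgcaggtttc

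The other 9 lower members with the Ets core are shown as 60 bases around it, because it was the motif whose share among members was furthest above its share among all promoters. The windows run 5′ to 3′ on the strand of the gene, at chr12:55398666-55398725 (Psma6, plus), chr12:100110142-100110201 (Psmc1, plus), chr5:21785164-21785223 (Psmc2, plus), chr14:45329697-45329756 (Psmc6, plus), chr16:20651592-20651651 (Psmd2, plus), chr14:14120958-14121017 (Psmd6, minus), chr11:80428555-80428614 (Psmd11, plus), chr11:107479468-107479527 (Psmd12, plus) and chr16:95990997-95991056 (Psmg1, minus). CTTCCGG is the same core on the opposite strand. The annotated starts used for these sequences can differ from those of the transcripts behind FPKM. For Psmc1 the window lies well before base 100112331, where the transcript read here starts.
Psma6: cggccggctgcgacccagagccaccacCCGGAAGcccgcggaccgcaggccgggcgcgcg
Psmc1: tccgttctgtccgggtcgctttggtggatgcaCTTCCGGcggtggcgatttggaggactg
Psmc2: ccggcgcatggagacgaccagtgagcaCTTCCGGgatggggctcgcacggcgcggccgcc
Psmc6: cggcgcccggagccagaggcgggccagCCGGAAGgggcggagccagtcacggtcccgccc
Psmd2: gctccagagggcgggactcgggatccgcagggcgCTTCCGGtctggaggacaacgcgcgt
Psmd6: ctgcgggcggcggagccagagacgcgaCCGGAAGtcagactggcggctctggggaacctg
Psmd11: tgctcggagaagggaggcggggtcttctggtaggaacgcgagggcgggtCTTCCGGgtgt
Psmd12: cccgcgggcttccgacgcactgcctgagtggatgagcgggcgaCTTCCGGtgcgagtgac
Psmg1: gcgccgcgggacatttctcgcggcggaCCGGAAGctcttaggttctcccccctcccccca

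The log2 ratios of these 9 genes ranged from -0.29 in Psma6 to -1.73 in Psmd11, so the core stood before genes with small and with large differences. The antioxidant response element core lay before the constitutive catalytic subunits Psmb5 and Psmb6, shown for that reason at chr14:54618009-54618068 (minus strand) and chr11:70525297-70525356 (plus strand), with the core in capitals. For Psmb7, the other tested constitutive catalytic subunit, no sequence was available. The core was present for 13.2% of members and for 11.5% of all promoters.
Psmb5: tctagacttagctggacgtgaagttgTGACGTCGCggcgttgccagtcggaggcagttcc
Psmb6: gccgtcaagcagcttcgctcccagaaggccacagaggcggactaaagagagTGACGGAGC

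Genes that work with the proteasome were described from lists chosen by function. Of 10 partners under other names, 5 were lower and 2 higher, with a median log2 ratio of -0.32. Among all tested genes 37.2% were lower and 37.8% higher. Txnl1, a thioredoxin of the 19S cap, was lower (-1.08, adjusted p = 0.000993), as was the deubiquitinase Usp14 (-0.56, adjusted p = 0.0137), whereas the lid peptide Shfm1, now named Sem1 (0.32, adjusted p = 0.0448) and the stress-induced Zfand2a (0.70, adjusted p = 0.00995) were higher. Among ubiquitin genes and shuttle factors, the polyubiquitin gene Ubb was higher in CNS (0.71, adjusted p = 0.00055) and Rps27a, which encodes ubiquitin fused to a ribosomal protein, did not pass the test (0.03, adjusted p = 0.642). The shuttle factors Ubqln4 (-1.79), Rad23b (-0.78) and Ubqln1 (-0.60), which carry tagged proteins to the proteasome, were lower, and the shuttle Ubqln2 did not pass the test (0.21, adjusted p = 0.0878).

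Nfe2l1, the transcription factor that raises proteasome genes when proteasome activity is short, was read at 20.7 and 25.2 FPKM in CNS and at 56.4 and 59.2 FPKM in dLN (log2 ratio -1.30, adjusted p = 0.000569). Ddi2, the protease that activates it, was also lower (-0.82, adjusted p = 0.00407), as were the small Maf partners Mafg (-1.98) and Mafk (-1.57). Ngly1, the enzyme that removes its glycans, went the other way (0.75, adjusted p = 0.00416), and so did the related factor Nfe2l2 (0.86, adjusted p = 0.00127). The segregase Vcp, which extracts ubiquitinated proteins for degradation, fell from 233.0 and 213.8 FPKM in dLN to 89.2 and 91.1 FPKM in CNS (log2 ratio -1.30, adjusted p = 0.000205). Of this list of 10 genes, 6 were lower and 3 higher, where 37.2% of all tested genes were lower and 37.8% higher.

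Other multi-subunit complexes shared the direction, in a comparison in which 37.2% of all tested genes were lower and 37.8% higher. The COP9 signalosome, a relative of the 19S lid, had 7 of 9 subunits lower and none higher, with a median log2 ratio of -0.88. The chaperonin TRiC, which folds actin and tubulin, had all 8 subunits lower, with a median of -1.27 and Cct3 at 72.7 and 75.9 FPKM in CNS and 341.4 and 357.4 FPKM in dLN (log2 ratio -2.22). Lower values in CNS were therefore also found for complexes outside the proteasome, and the difference between these lists was not tested.

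Genes of stimulation and of the interferon response moved with the same split, where 37.2% of all tested genes were lower in CNS and 37.8% higher. Of 10 stimulation-induced genes, 9 were lower in CNS (median log2 ratio -2.98), among them Il2 at 18.2 and 38.8 FPKM in CNS and 5363 and 6176 FPKM in dLN, and Myc (-3.95). Cd69, the remaining gene, was higher, at 515.6 and 510.0 FPKM in CNS and 188.7 and 221.1 FPKM in dLN (log2 ratio 1.32, adjusted p = 0.000321). Of 9 interferon-induced genes, all 9 were higher in CNS (median log2 ratio 2.64), among them Tap1, a subunit of the peptide transporter that works downstream of the proteasome, at 151.4 and 160.3 FPKM in CNS and 64.9 and 56.4 FPKM in dLN. Their part in the proteasome values was not tested.

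Transcript length moved weakly with the log2 ratio, with a Spearman's rho of -0.117 over the 10634 tested genes. Over all tested genes, the median log2 ratio ran from 0.32 in the first of 5 equal bins by length (86 to 1461 bases) to -0.14 in the last (4432 to 21718 bases). Of the 45 members, whose transcripts had 554 to 6442 bases, 27 lay in the bin of the shortest transcripts and had a median log2 ratio of -0.52, and the other 18 had a median of -0.76. Across the 45 members Spearman's rho of log2 ratio and length was -0.17, and that of log2 ratio and mean FPKM 0.0881, in which all points share the same 4 libraries.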

How the data were processed

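RNA of effector CD4 cells was sequenced in 4 libraries (2 CNS, 2 dLN) made with TruSeq RNA V2 kits on a HiSeq instrument. After trimming and mapping, the authors deposited 1 table per tissue, each with the FPKM of 33819 RefSeq transcripts (mouse, mm10). The aligner and the program that computed FPKM are not given in the sources used here. Both library names share 1 cell of the CNS header, and the value columns were taken in that order.

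FPKM was summed by symbol, and 565 transcripts without a symbol were left out. The 10634 genes whose mean reached 1 FPKM in CNS or dLN entered a limma 3.58.1 fit of log2(FPKM + 1) on tissue (R 4.3.3, lmFit, eBayes with trend), and p-values were adjusted by Benjamini-Hochberg with a threshold of 0.05. The study names Student's test in general and does not say whether it was applied to the RNA-seq values. Fold changes on this scale understate those of low genes. The fit was tested on simulated data. Depth was estimated from low FPKM values, of which 91.3% to 93.7% lay within 0.05 of a whole fragment, after 150 to 190 bases were taken off each length. No fold is given where both tissues are at or under 3 fragments.

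The members and the lists of other genes were chosen with earlier results of these data known. Full values are given for the largest difference in each direction within each role and for members with a particular role, and other members are named to account for all 47. Some genes of the other lists are not reported here. Alternatives covered the pseudocount (0.1, 0.01), the filter (none, 5 FPKM), 3 scalings, the highest transcript, eBayes without trend, a replicate block, a 2-fold minimum and each library left out in turn. Coordinates count from 1. Gene sums were made with pandas 2.3.3 and numpy 2.4.6 in Python 3.11.15, correlations with scipy 1.17.1 and figures with matplotlib 3.10.9.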

Additional observations from a re-analysis of the deposited data

How the results depend on the processing

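The count of 29 lower members lay between 27 and 33 under other pseudocounts, filters, scalings, priors and transcript summaries, between 25 and 29 when a library was left out (the lone library of a tissue then being assumed to vary like the others), and was 13 when a 2-fold difference was also required. The count of 4 higher members was 2 with libraries scaled to the same FPKM sum, 7 with the same upper quartile, 1 with the 2-fold requirement, and 3 to 4 when a library was left out. These scalings moved the median of all tested genes by -0.17 and 0.12, and the share of higher genes among calls from 50.4% to 43.1% and 55.6%. The median log2 ratio of the members was -0.57 without a filter, -0.65 with a mean of at least 5 FPKM, -0.83 with the same sum, -0.50 with the same upper quartile, -0.65 with median ratio scaling, -0.66 with the highest transcript, and -0.67 to -0.58 when a library was left out. Scalings shift every gene of a library and filters change the genes included by construction, and for the highest transcript the cause was not tested. The log2 difference of the inducible to constitutive ratio, 3.32, was 3.18 to 3.46 when a library was left out.

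Direction changed for 8 members, none of which passed the test. With the same FPKM sum these were Psma1 (-0.14), Psmd8 (-0.10), Psmd9 (-0.18) and Psme4 (-0.025), with the same upper quartile Psma2 (0.048), Psmc3 (0.0066), Psmd4 (0.10) and Psmf1 (0.086), and with median ratio scaling Psmd9 (-0.016). When a library was left out, Psma1 ranged from -0.023 to 0.14, Psmd4 up to 0.038 (without CNS replicate 1), Psmd9 from -0.023 to 0.029 and Psmf1 from -0.084 to 0.0045. Of 674 pairs of member and setting, 638 kept direction and side of the threshold. Gains with the same sum were Psma2, Psmc3, Psmd4 and Psmg4, each lower in CNS.

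Nothing in the labels says that replicate numbers pair the libraries, and the differences between replicates 1 and 2 of the tissues correlated at 0.0933 over 10634 genes. With a replicate block 30 members were lower and 4 higher, with a median of -0.63, and only Psmg4 changed its call (adjusted p = 0.0198). Psmc3ip and Psme2b rested on the fewest fragments of the tested members, and 2 libraries per tissue limit the precision of every value.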
